A study of Saccharomyces cerevisiae with 2 samples.

Results

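The spliceosomal small nuclear RNAs (snRNAs) U1, U2, U4, U5 and U6 were examined in RNA-seq data of budding yeast. They were found in the count table by gene name, ignoring case, as SNR19 (U1), LSR1 (U2), SNR14 (U4), SNR7-L and SNR7-S (the long and short form of U5) and SNR6 (U6). These are 6 of the 7127 features listed and 6 of the 7103 features outside the rDNA. The data comprise 1 library of npl3Δ cells, which lack the gene of the mRNA-binding guard protein Npl3, and 1 library of wild type cells. Both strains were grown at 25 °C, and both libraries were made from 200 ng of total RNA with a stranded kit and no removal of rRNA. By its methods the study used mainly strains derived from BY4741, a haploid laboratory strain with auxotrophic markers, and a few derived from S288C, and the deletion alleles in its strain list replace NPL3 with the kanMX4 marker, but the text does not say which of the listed strains were sequenced. With 1 library per genotype no difference between the genotypes has a replicate check, and no test between them was made. All intervals given are 95% intervals for counting error alone and treat each count as independent. No molecular identifiers are described for the libraries. Several reads may therefore stem from 1 molecule, and the intervals may be too narrow even for counting error. As the counts come from bulk RNA, fewer cells that hold an RNA and less of it per cell cannot be told apart.

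The snRNAs are the RNA core of the spliceosome, the machine that removes introns from pre-mRNA, and each works as a particle with its own proteins. U1 pairs with the 5' splice site and U2 with the branch site. U4 arrives paired with U6 in a tri-snRNP with U5, and once U4 has been unwound from U6, U6 pairs with the 5' splice site and with U2 to build the catalytic centre, while U5 holds the exon ends. RNA polymerase II makes U1, U2, U4 and U5, which carry a ring of Sm proteins. U6 is the exception, as RNA polymerase III makes it, it ends in a run of uridines, and the ring that binds this end consists of the Lsm2-8 proteins.

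The sequences were read from the RefSeq genome of build R64 (sacCer3), the build named for the deposited counts, and are written as DNA from 5' to 3'. They are shown for the stretches that pair with each other or with the pre-mRNA, because the counts of the pairing partners U4 and U6 are compared further on. Capitals mark, in U6, the ACAGAG box (nucleotides 47 to 52), which pairs with the 5' splice site, the longest stretch exactly complementary to U4 (70 to 80) and the 4 terminal T. In U4 they mark the same complementary stretch (1 to 11). In U5 they mark loop 1 (93 to 101), which contacts the exons, and the 35 nt that only the long form holds. In the first 60 nt of U1 they mark the stretch that pairs with the 5' splice site (3 to 10), and in the first 60 nt of U2 the stretch that pairs with the branch site (34 to 39).
U6 (SNR6): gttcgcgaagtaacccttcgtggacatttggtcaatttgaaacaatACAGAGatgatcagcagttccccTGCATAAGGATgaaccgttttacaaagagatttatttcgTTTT
U4 (SNR14): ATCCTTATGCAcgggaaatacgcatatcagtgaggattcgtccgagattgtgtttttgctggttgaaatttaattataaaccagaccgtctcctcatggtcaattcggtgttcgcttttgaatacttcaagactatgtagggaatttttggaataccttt
U5 (SNR7-L): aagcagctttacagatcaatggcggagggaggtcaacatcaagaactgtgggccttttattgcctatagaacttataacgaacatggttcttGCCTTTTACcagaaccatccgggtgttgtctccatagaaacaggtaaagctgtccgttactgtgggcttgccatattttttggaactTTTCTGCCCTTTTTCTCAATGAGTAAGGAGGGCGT
U1 (SNR19): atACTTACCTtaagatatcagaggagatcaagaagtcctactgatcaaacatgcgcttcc
U2 (LSR1): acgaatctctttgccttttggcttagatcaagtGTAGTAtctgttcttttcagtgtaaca

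The genes lie on 5 chromosomes, and no other annotated RefSeq gene overlaps any of them. U1 is encoded at chromosome XIV, 230105 to 230672 (minus strand, 568 nt), and U2 at chromosome II, 680688 to 681862 (minus strand, 1175 nt). U4 lies at chromosome V, 167427 to 167586 (minus strand, 160 nt), and U6 at chromosome XII, 366235 to 366346 (plus strand, 112 nt). The long form of U5 covers 939459 to 939672 of chromosome VII (minus strand, 214 nt), and the short form covers 939494 to 939672 (179 nt). The exact complement of U4 and U6 is 11 nt long, and the next longest exact complement between them has 6 nt. Letters were searched on both strands of the 6 sequences. ACTTACCT, which marks U1, and GCCTTTTAC, the loop of U5, occurred in 0 of the 76 annotated snoRNA sequences, in which GTAGTA of U2 and ACAGAG of U6 each occurred in 5.26%. Such a match is a description of letters and was not used in any comparison.

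The count table held 401753674 counts for npl3Δ and 421789474 for wild type, most of them on rRNA, and 1.66% of the counts in npl3Δ and 1.14% in wild type lay outside the rDNA. These totals exceed the number of reads per sample given in the methods, so the percentages are shares of counts and not of reads. Whether reads entered several rows of the rDNA was not tested. The label of the deletion strain was checked with NPL3, which had 3 counts in npl3Δ and 1345 in wild type, a scaled ratio of 0.00159 (0.000327 to 0.00465). The libraries also differed in mating-type genes: STE2, the receptor gene of a cells, had 8 counts in npl3Δ and 774 in wild type, and STE3, the receptor gene of α cells, had 1326 in npl3Δ and 6 in wild type. A difference between the strains in mating type or background and the loss of Npl3 therefore cannot be told apart in any of the ratios. The feature of 1 gene, ATG26, whose reads were not traced to its mRNA, held 34.5% of the counts outside the rDNA in npl3Δ and 23.5% in wild type. For this reason the libraries were scaled by the median ratio of npl3Δ to wild type over the features outside the rDNA with at least 10 counts, which was 1.40, and a scaled log2 ratio of 0 stands for a feature that moved like this median feature. With the counts as deposited every log2 ratio is higher by 0.49.

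U6 was the one snRNA past a 1.5-fold difference between the genotypes, and it fell in npl3Δ. SNR6 had 215 counts in npl3Δ, against 401 in wild type, so that its count was lower in npl3Δ even before scaling, with a ratio of 0.536 (0.452 to 0.634) as deposited. After scaling the ratio was 0.382 (0.322 to 0.452), a log2 ratio of -1.39. Of the 6118 features tested, 128 had a lower log2 ratio than U6, which places it at the 2.09th percentile. The decrease was past 1.5-fold under all 12 alternative settings, with log2 ratios between -1.39 and -0.83.

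U4, the pairing partner of U6, had 166 counts in npl3Δ and 151 in wild type. Its ratio was 1.10 (0.877 to 1.38) as deposited and 0.783 (0.624 to 0.982) after scaling, a log2 ratio of -0.35 with an interval of -0.68 to -0.03. The bounds show how little these low counts fix: they reach past 1.5-fold on one side and almost to 0 on the other. U5, which joins U4 and U6 in the tri-snRNP, had 7675 counts in npl3Δ and 6083 in wild type, a scaled ratio of 0.898 (0.868 to 0.929) and a log2 ratio of -0.15. Both U4 and U5 changed sign in relation to 0 with the scaling, being above 0 when the counts were used as deposited.

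U1 had 16166 counts in npl3Δ and 11254 in wild type. Its scaled ratio was 1.02 (0.998 to 1.05), a log2 ratio of 0.03, so that U1 moved like the median feature. U2, the most abundant of the snRNAs in counts, had 42875 counts in npl3Δ and 24695 in wild type, a scaled ratio of 1.24 (1.22 to 1.26) and a log2 ratio of 0.31. It was the highest of the 6 features, and its interval is narrow because of its depth, but the spread between cultures is not known. U2 was past 1.5-fold only when the scaling rested on the rRNA or was left out.

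**Figure D1:**
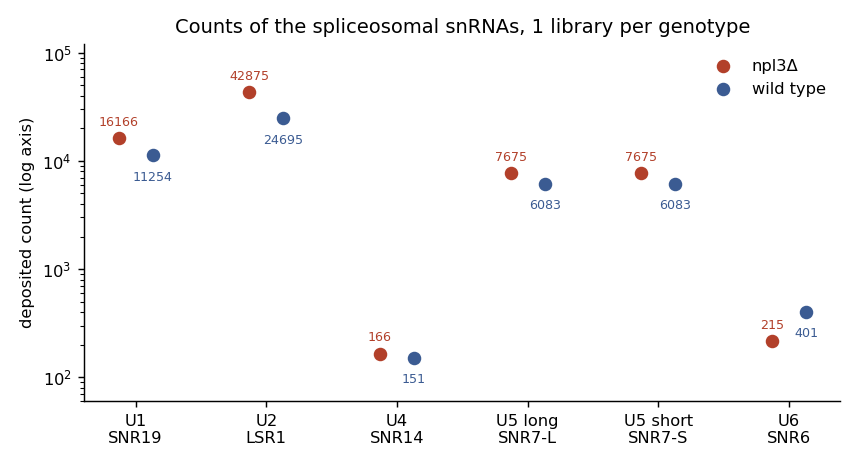
Deposited counts (log axis) of the 6 snRNA features in the npl3Δ library (red, left of each pair) and the wild type library (blue, right), 1 point per library. U6 is the one feature with fewer counts in npl3Δ (215) than in wild type (401).

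As a list, 1 of the 6 features fell past 1.5-fold and 0 rose, beside 12.3% of all features tested that fell and 16.0% that rose past the same fold. The median log2 ratio of the 6 features was -0.15, which is the value of U5, and the median of all 6118 features tested was 0.0014. The log2 ratios of the snRNAs extended over 1.69, from -1.39 for U6 to 0.31 for U2, which is a 3.23-fold spread. All 6 features passed the minimum of 10 counts. Summed over the 5 RNAs with U5 counted once, the snRNAs had 67097 counts in npl3Δ and 42584 in wild type. These are 1.01% and 0.887% of the counts outside the rDNA in these libraries, with ATG26 included in the whole. The list therefore did not move as a block, and its summed level follows U2 and U1, which hold most of its counts.

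**Figure D2:**
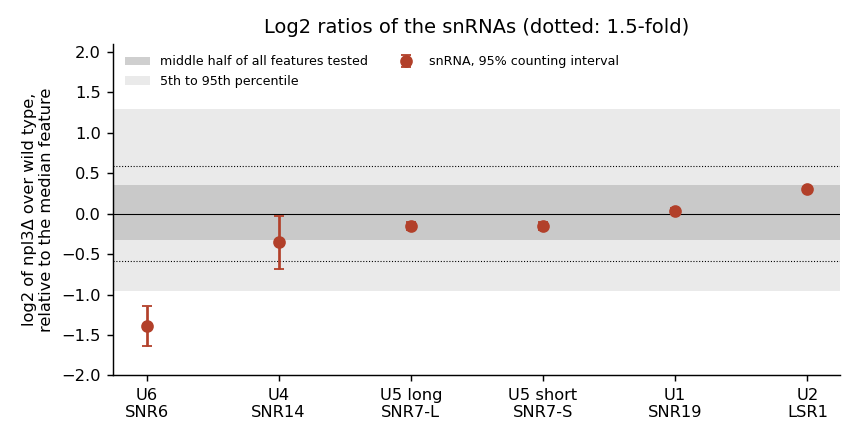
Log2 ratio of npl3Δ over wild type relative to the median feature for the 6 snRNA features, ordered from low to high, with 95% counting intervals. Grey bands show the central 50% and the 5th to 95th percentile (-0.96 to 1.30) of the 6118 features tested, and dotted lines show 1.5-fold; U6 at -1.39 lies below both bands.

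SNR7-L and SNR7-S carry the same counts, 7675 in npl3Δ and 6083 in wild type, with a difference of 0 in either library. The net count entered for 1 form alone was thus 0, as when every U5 read enters both rows. The 35 nt that tell the long form from the short form lie at chromosome VII, 939459 to 939493. The table holds 1 measurement of U5 and not a measurement of each form, so the ratio of long to short U5, which depends on 3' end processing, cannot be read from these counts. With U5 entered once, the median log2 ratio of the snRNAs was also -0.15, because U5 is the middle value either way.

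Quotients of counts within a library do not depend on the scaling and were formed for 5 pairs of snRNAs. For U4 and U6, which enter the spliceosome paired with each other, there were 0.772 counts of U4 per count of U6 in npl3Δ and 0.377 in wild type. This quotient was 2.05 times as high in npl3Δ (1.56 to 2.70). U5 per U6 was 35.7 in npl3Δ and 15.2 in wild type, a change of 2.35-fold (1.99 to 2.79). The quotients of both tri-snRNP partners to U6 were thus higher in npl3Δ by more than these counting intervals, which treat each count as independent.

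Among the other pairs the changes were smaller. U4 per U5 was 0.0216 in npl3Δ and 0.0248 in wild type, and the interval of the change (0.697 to 1.09) includes 1. U1 per U2 was 0.377 in npl3Δ and 0.456 in wild type, a change of 0.827-fold (0.804 to 0.851). U1 per U5 was 2.11 in npl3Δ and 1.85 in wild type, a change of 1.14-fold (1.09 to 1.19). The change was past 1.5-fold for the 2 pairs that contain U6 and for none of the 3 that do not. Each change follows from the single ratios of its 2 RNAs given above. The pairs with U6 therefore restate the lower count of U6 in npl3Δ and are no separate result on pairing partners.

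**Figure D3:**
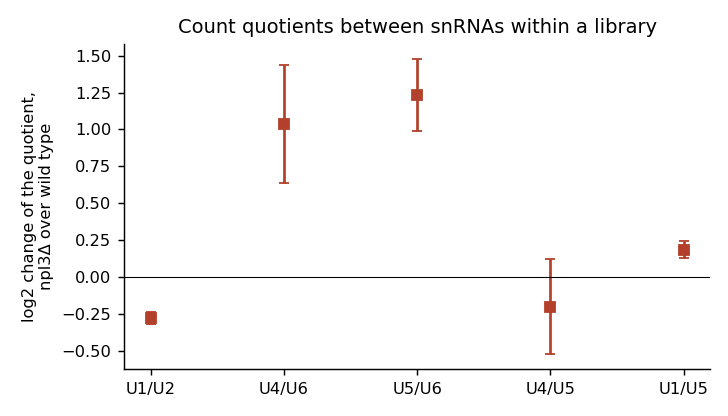
Log2 change, npl3Δ over wild type, of the quotient of counts between pairs of snRNAs within a library, with 95% intervals for counting error. The quotients over U6 lie at 1.04 for U4 and 1.23 for U5, and the other pairs lie between -0.27 and 0.19.

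The snRNAs fell into a high and a low level per nucleotide of annotated length. In npl3Δ, U1 had 28.5 counts per nucleotide, U2 36.5 and U5 35.9 (long form), and in wild type these RNAs had 19.8, 21.0 and 28.4. U4 had only 1.04 counts per nucleotide in npl3Δ and 0.944 in wild type, and U6 had 1.92 and 3.58. Among the features outside the rDNA with a known length, U1, U2 and U5, taken with either length of U5, ranked between 8 and 18 in the libraries. U6 ranked at 305 in npl3Δ and at 165 in wild type, and U4 at 457 and 424 in these strains. The spread of levels between the snRNAs within a library was therefore larger than any change between the genotypes.

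U4 and U6 are also the shortest of the snRNAs, with 160 nt and 112 nt, and the level of such short RNAs depends on how length is counted. With 50 nt taken off each length, U6 had 3.47 counts per nucleotide in npl3Δ and 6.47 in wild type, and U4 had 1.51 and 1.37. The counts of U5, divided by the length of its short form (179 nt) less 50 nt, gave 59.5 in npl3Δ and 47.2 in wild type. Both forms share these counts, so this is not a level of the short form. The other structured RNAs (snoRNAs, SCR1, RPR1 and NME1), grouped by length after the values of the snRNAs had been seen, were set beside them. Those of at most 100 nt had a median of 0.982 counts per nucleotide in npl3Δ and 0.752 in wild type (28 RNAs), and those of over 100 and up to 200 nt had 3.49 and 2.00 (28 RNAs). Those over 200 and up to 300 nt had 3.17 in npl3Δ and 3.08 in wild type (12 RNAs), so that in npl3Δ the medians did not increase with length throughout. The 11 RNAs longer than 300 nt had medians of 12.8 in npl3Δ and 10.5 in wild type. How far the loss of short RNAs in library preparation sets these levels was not tested. The log2 ratios did not follow length in the same way: the medians were 0.27 up to 100 nt, -0.29 over 100 and up to 200 nt, -0.33 over 200 and up to 300 nt and 0.0063 above. Past 1.5-fold, 11 RNAs rose and 3 fell up to 100 nt, 4 rose and 10 fell over 100 and up to 200 nt, the class of U4 and U6, 1 rose and 4 fell over 200 and up to 300 nt, and 2 rose and 0 fell above. Of all features tested, 16.0% rose and 12.3% fell. The lowest value in the class of U4 and U6, apart from U6 itself, was -1.28.

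**Figure D4:**
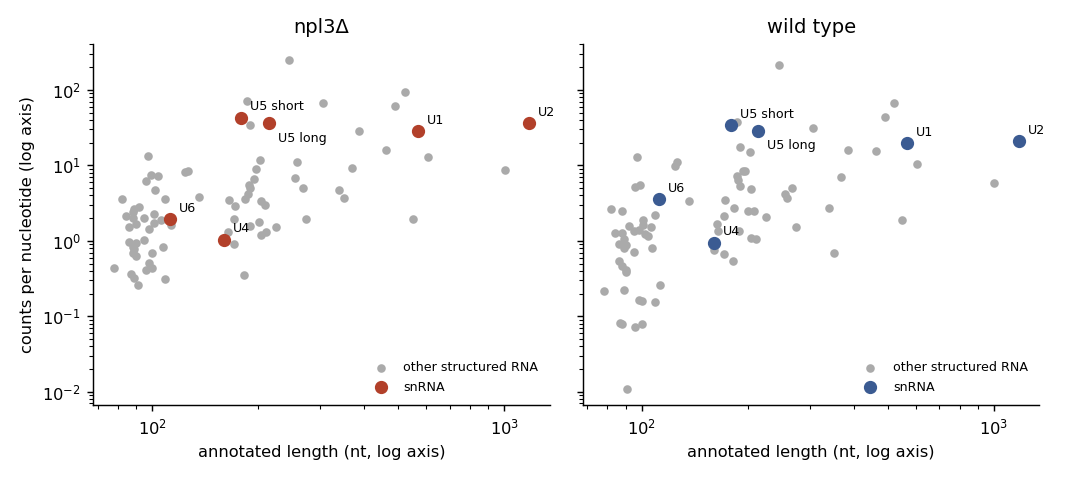
Counts per nucleotide (log axis) against annotated length (nt, log axis) for the snRNAs (coloured) and the other structured RNAs (grey) in npl3Δ (left panel) and wild type (right panel). U1, U2 and U5 lie between 19.8 and 42.9 counts per nucleotide, and U4 and U6 between 0.944 and 3.58. Both points of U5 divide the same counts by the length of a form.

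Beside the other noncoding RNAs, U6 stood at the low end. Of the 79 snoRNA, snRNA and other noncoding features with at least 100 counts, SNR6 had the lowest log2 ratio. SNR9, a box H/ACA snoRNA, followed with 770 counts in npl3Δ and 1332 in wild type, a log2 ratio of -1.28 (-1.41 to -1.15), so that the intervals of both overlap and their order is not fixed. The 76 snoRNA features tested had a median log2 ratio of -0.086, and 18 of them rose and 17 fell past 1.5-fold (16.0% and 12.3% of all features tested did so). SNR81, the snoRNA that guides a pseudouridine in U2, had 358 counts in npl3Δ and 500 in wild type, a log2 ratio of -0.97. SNR191, SNR73 and RPR1, the RNA of RNase P, had the log2 ratios nearest to the median of the snRNAs, at -0.14, -0.18 and -0.11. This likeness compares 1 ratio from 2 libraries and says nothing of shared control.

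A list of 11 other structured RNAs, of which 10 were analysed here, had a median log2 ratio of -0.16, near that of the snRNAs. Of the 10, 0 rose and 2 fell past 1.5-fold, beside 16.0% and 12.3% of all features tested. The 2 that fell were SNR81 and SNR128 (the U14 snoRNA), where SNR128 had 1058 counts in npl3Δ and 1402 in wild type, a log2 ratio of -0.90. SCR1, the RNA of the signal recognition particle, had 49036 counts in npl3Δ and 34760 in wild type, a log2 ratio of 0.0063. SNR17A and SNR17B, the copies of the U3 snoRNA, had log2 ratios of -0.01 and -0.43, which are uncertain because near-identical copies can share reads. SNR190 had the highest value of the list, 0.48.

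The genes flanking the snRNAs were read to see what lay beside them. On either side of SNR6, REX3 had 133 counts in npl3Δ and 95 in wild type and YLR108C had 161 and 116, log2 ratios of -0.0047 and -0.017, so that the genes next to U6 moved like the median feature. Upstream of U2 by 316 nt on the same strand lies SWC5, a gene of the SWR1 chromatin remodeller, with 551 counts in npl3Δ and 80 in wild type, a log2 ratio of 2.29. COQ21, on the other side of U2, had only 5 counts in npl3Δ and 12 in wild type. The other flanking genes (SSU72, POP1, TMA20, SEC3, TOS2 and PET54) had log2 ratios between -0.73 and 0.36. The flanking genes had at most 632 counts in npl3Δ and 538 in wild type, both for POP1, whereas U1, U2 and U5 had at least 7675 in npl3Δ and 6083 in wild type. U6 had more counts than REX3 and YLR108C in both libraries. U4, with 166 counts in npl3Δ and 151 in wild type, had fewer than TMA20 (302 and 303) and SEC3 (604 and 334), both on its strand. Whether reads of flanking genes entered the row of U4 was not tested.

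The proteins that bind the snRNAs were described from lists of their genes. Of 54 genes of snRNP proteins, all of which had at least 10 counts, 10 rose (18.5%) and 3 fell (5.56%) past 1.5-fold, beside 16.0% and 12.3% of all features tested. Their median log2 ratio was 0.089. The genes had between 43 and 2670 counts in the libraries together, so that many single ratios have wide intervals.

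The Lsm2-8 ring binds the 3' end of U6. None of its 7 genes passed 1.5-fold, where 16.0% of all features tested rose and 12.3% fell, and the median log2 ratio was -0.17. LSM5 was lowest, with 229 counts in npl3Δ and 225 in wild type, a log2 ratio of -0.46, and LSM4 highest, with 360 and 218 counts in these strains and a log2 ratio of 0.23. Of the 7 Sm genes, 1 fell: SMX3, which encodes the SmF protein, had 83 counts in npl3Δ and 110 in wild type, a log2 ratio of -0.89 (-1.33 to -0.47). The highest Sm gene was SMD3 with 0.14, and the median was -0.13. The medians of the ring genes were close to that of the snRNAs, -0.15, which is the value of U5. U6, the RNA that the Lsm2-8 ring binds, had a log2 ratio of -1.39, far below the median of -0.17 of that ring's genes.

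Among the 11 genes of U4/U6 and tri-snRNP proteins, 2 rose and 1 fell past 1.5-fold, beside 16.0% and 12.3% of all features tested. SPP381 had 115 counts in npl3Δ and 33 in wild type, a log2 ratio of 1.30 (0.74 to 1.92), and PRP3, whose protein binds the paired U4 and U6, had 183 and 63, a log2 ratio of 1.04 (0.63 to 1.49). PRP38, needed for activation of the spliceosome, had only 10 counts in npl3Δ and 33 in wild type, a log2 ratio of -2.15 (-3.40 to -1.16). PRP24, whose protein anneals U4 to U6, had 87 counts in npl3Δ and 72 in wild type, a log2 ratio of -0.22 (-0.68 to 0.25). The median of the list was 0.12.

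Of the 13 genes of U2 proteins, 4 rose and 0 fell, beside 16.0% and 12.3% of all features tested, with a median log2 ratio of 0.39. MSL1, which encodes the U2-B'' protein, had 55 counts in npl3Δ and 13 in wild type, a log2 ratio of 1.56 (0.70 to 2.59), the highest of all snRNP genes listed. RDS3, HSH49 and PRP5 followed with 0.82 (0.16 to 1.55), 0.67 (0.02 to 1.38) and 0.65 (0.34 to 0.98). The counts were low for RDS3 (65 in npl3Δ and 26 in wild type) and HSH49 (63 and 28), and the interval of HSH49 reaches almost to 0. LEA1, whose protein binds Msl1, was lowest with -0.39 (-0.94 to 0.17). Of the 10 genes of U1 proteins, 3 rose and 1 fell, beside the same shares of all features. Those that rose were MUD1 with 0.76 (0.21 to 1.34), PRP40 with 0.72 (0.42 to 1.03) and SNU71 with 0.62 (0.31 to 0.94). SNP1, the gene of the U1-70K protein, fell with 49 counts in npl3Δ and 68 in wild type, a log2 ratio of -0.95 (-1.52 to -0.41). Among the 6 genes of U5 proteins, BRR2, the helicase that unwinds U4 from U6, rose with 1295 counts in npl3Δ and 608 in wild type, a log2 ratio of 0.60 (0.46 to 0.74). This value lies just past the threshold of 1.5-fold. SNU114 was lowest with 0.05 and PRP8 had 0.28.

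**Figure D5:**
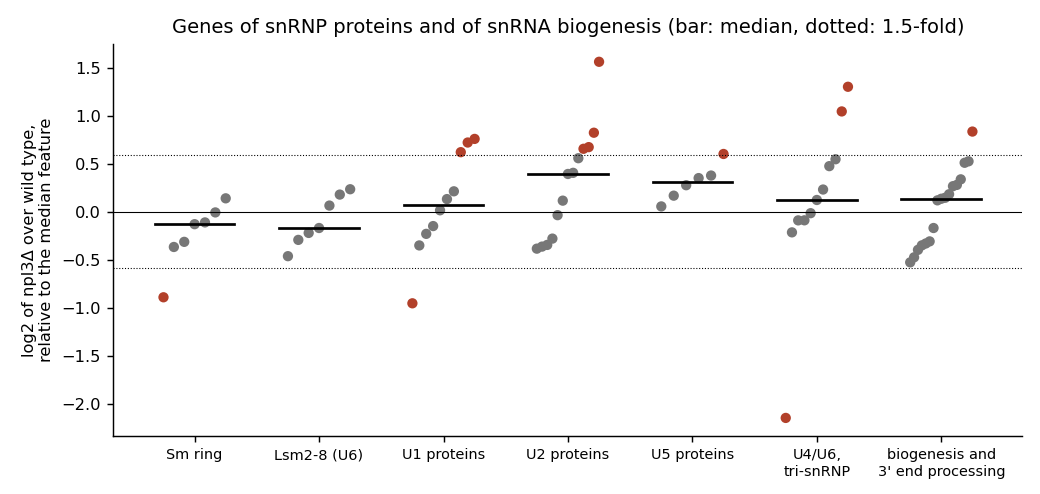
Log2 ratio of npl3Δ over wild type relative to the median feature for genes of snRNP proteins and of snRNA biogenesis, 1 point per gene, ordered by value within each list. Black bars are list medians, between -0.17 (Lsm2-8) and 0.39 (U2 proteins), and red points lie past 1.5-fold.

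Of 17 genes for the making and processing of snRNAs, 1 was past 1.5-fold up and 0 down, beside 16.0% and 12.3% of all features tested. The median log2 ratio was 0.13. The gene past the threshold, SWM2, which acts with the cap methylase Tgs1, had only 28 counts in npl3Δ and 11 in wild type, and its interval (-0.19 to 2.01) includes 0. USB1, whose human counterpart trims the 3' end of U6, had 59 counts in npl3Δ and 37 in wild type, a log2 ratio of 0.18 (-0.43 to 0.82), and LHP1, the La protein that binds the U6 precursor, had 480 and 436 counts in these strains and a log2 ratio of -0.35. PUS7, which makes pseudouridine in U2, was lowest with 481 counts in npl3Δ and 494 in wild type, a log2 ratio of -0.53. RNT1, the RNase III that cuts snRNA precursors, had a log2 ratio of -0.17 (-0.58 to 0.24).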

How the data were processed

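RNA-seq of 1 npl3Δ and 1 wild type library was used. The deposited counts are whole numbers per annotated feature without normalization. Per the methods and the labels, the authors mapped reads with HISAT2 to sacCer3 (R64) and counted them with featureCounts. Versions, annotation and the treatment of multi-mapping or overlapping reads are not given in the sources used here. The deposited coverage of the 35S rRNA holds no snRNA and was not used.

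Features were matched to RefSeq R64 by locus tag (6047) or symbol (122), and 958 kept their own names. The 22 rRNA features and 2 features inside the 35S rRNA were left out of scaling. Libraries were scaled by the median ratio over features with at least 10 counts, and log2 ratios carry a pseudocount of 0.5. Ratios have 95% exact conditional binomial (Clopper-Pearson) intervals, and quotients have normal approximations on the log scale. A count test such as edgeR's needs replicates and was not run, so a feature counts as changed when past 1.5-fold.

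The snRNAs, the gene lists and the scaling were chosen with earlier results of these data known. Named genes were all snRNAs, SCR1, NPL3, ATG26, BDF1, any feature overlapping an snRNA and, from each list, up to 5 genes past 1.5-fold with at least 50 counts, the highest and the lowest, and the 3 noncoding RNAs of at least 100 counts most like the median snRNA. STE2, STE3, SNR9, SNR17A, SNR17B, PRP24, PRP8, USB1, LHP1, RNT1, the flanking genes and the length classes were added after values were seen. Alternatives concerned scaling (among them TMM of edgeR 4.0.16 and size factors of DESeq2 1.42.0), pseudocount, filter, fold and length. The scripts were tested on simulated data. R 4.3.3 and Python 3.11.15 were used, with matplotlib 3.10.9, pandas 2.3.3, scipy 1.17.1 and numpy 2.4.6.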

Additional observations from a re-analysis of the deposited data

How the results depend on the processing

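No paired analysis was possible because each genotype has 1 library. Scaling moved all snRNAs by the same amount. The median log2 ratio of the snRNAs was 0.34 with counts as deposited, 0.41 scaled by the whole count table, 0.37 by the 25S rRNA, 0.10 by the sum outside the rDNA without ATG26 and BDF1, and -0.069 by the median snoRNA, an alternative added after the data were seen, so its sign depends on the scaling. Under the first 4 of these, U6 had -0.90, -0.83, -0.86 and -1.13. U2 was past 1.5-fold up with counts as deposited (1 feature), with the 25S rRNA (1 feature) and, with U1, with the whole table (2 features). The other scalings, TMM and DESeq2 size factors among them, moved log2 ratios by at most 0.028. Of the protein genes listed, 11 rose and 3 fell past 1.5-fold, against 3 and 1 past 2-fold, 7 up with at least 100 counts, and 37 up and 1 down with counts as deposited. The shares of all features at these other settings are not given here, so these counts have no background beside them. Quotients do not depend on the scaling. Their alternatives were 0.5 added to each count and SNR7-S for U5, whose counts are the same as those of SNR7-L. These could hardly move the quotients and are no check of them. Counts of 151 to 401 limit U4 and U6, and the interval of U4 reaches past 1.5-fold.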

Other observations

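RNA polymerase III also makes SCR1, RPR1, the snoRNA SNR52, the 5S rRNA and the tRNAs, which were set beside U6 after its value had been seen. SNR52, at 92 nt shorter than U6, had 257 counts in npl3Δ and 144 in wild type, a log2 ratio of 0.34 (0.05 to 0.65), against -1.39 (-1.64 to -1.15) for U6. The 5S rRNA had a mean of 7320 counts over its 6 copies in npl3Δ and 5119 in wild type, a log2 ratio of 0.03 on the same scale. Of 299 tRNA features, 114 had at least 10 counts, and their median log2 ratio was -0.017, with single values between -2.92 and 4.97. RPR1 had -0.11 (-0.18 to -0.03). Among U6, SCR1, RPR1, SNR52 and the 5S rRNA, U6 was the one past 1.5-fold, where 16.0% of all features tested rose and 12.3% fell. How many tRNA features were past 1.5-fold was not counted. The 114 tRNA features together had only 2932 counts in npl3Δ and 2172 in wild type, so their single ratios are uncertain. Whether copies of the 5S rRNA or of a tRNA shared reads was not tested.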
